A study of Mus musculus with 16 samples.

Results

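The expression of 10 immediate early genes was followed through 16 leukaemias: Egr1, Egr2, Egr3 and Nr4a1, which report on antigen-receptor signalling in T cells, and Fos, Fosb, Jun, Junb, Ier2 and Dusp1, the AP-1 genes and their companions, which also respond to tissue handling. The 10 genes were chosen by name, with earlier results of these data known. Their Ensembl identifiers were found in every count table among 41214 genes in all. All 10 passed the filter on low counts, which left 17470 genes for testing. The samples were T cell acute lymphoblastic leukaemias (T-ALL) of C57Bl6 mice, 1 RNA-seq library per mouse, in 8 groups of 2 mice.

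The groups combine 3 features of the mice. Leukaemia arose with ICN induction (activated Notch, 12 mice) or without it (4 mice). p53 was wt (6 mice) or ko (10 mice). Miz1, the zinc finger factor encoded by Zbtb17, was wt (6 mice) or deltaPOZ, a protein that lacks the POZ domain (10 mice). ICN leukaemias with p53 wt came as Miz1 wt, Lck and Vav groups, and so did ICN leukaemias with p53 ko. The leukaemias without ICN were all p53 ko and came as a Miz1 wt and a Vav group. Lck and Vav are suffixes in the titles of deltaPOZ mice. The labels do not explain them, name no driver of ICN and give neither age, sex nor organ. Leukaemias with p53 wt and without ICN are not analysed here, so ICN could be compared only among p53 ko mice.

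Immediate early genes are transcribed within minutes of a stimulus, without new protein synthesis, through factors that already sit on their promoters, chiefly serum response factor with its partners at CArG boxes and CREB-family proteins at cyclic AMP response elements. In T cells, engagement of the antigen receptor activates the Ras-ERK and calcium pathways, and Egr1, Egr2, Egr3 and Nr4a1 are among the first genes to respond. Fos and Jun proteins pair to form AP-1. Genes of both sets are known to rise when tissue is cut, warmed or dissociated, so the level of either set in a tissue sample can carry both signals.

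Promoter sequences were read for part of each class only, since Egr1, Egr3 and Ier2 had no window. They cannot show how the binding letters are spread over the 2 classes. RefSeq windows of GRCm38.p6, from 250 bases before to 50 after an annotated start, matched 7 of the 10 genes (Egr2, Nr4a1, Fos, Fosb, Jun, Junb and Dusp1), with 5 windows for Egr2 among 11 in all. The windows were searched on both strands for the CArG box by its consensus, the full cyclic AMP response element TGACGTCA, its half-site TGACG, the AP-1 site TGANTCA, the EGR site GCGTGGGCG and the TATA box letters TATAAA. A full element always holds the half-site on both strands. The 250 bases before the start are shown for one gene pair of each class, and capitals mark every match. They lie at chr10:67537619-67537868 (Egr2, plus strand), chr15:101266596-101266845 (Nr4a1, plus strand), chr12:85473640-85473889 (Fos, plus strand) and chr4:95052223-95052472 (Jun, minus strand), outside every exon of GENCODE M21.
Egr2: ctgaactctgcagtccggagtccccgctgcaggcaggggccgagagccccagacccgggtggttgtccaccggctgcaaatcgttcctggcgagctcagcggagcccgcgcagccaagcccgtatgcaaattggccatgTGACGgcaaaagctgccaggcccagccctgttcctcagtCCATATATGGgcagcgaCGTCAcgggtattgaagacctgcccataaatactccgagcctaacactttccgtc
Nr4a1: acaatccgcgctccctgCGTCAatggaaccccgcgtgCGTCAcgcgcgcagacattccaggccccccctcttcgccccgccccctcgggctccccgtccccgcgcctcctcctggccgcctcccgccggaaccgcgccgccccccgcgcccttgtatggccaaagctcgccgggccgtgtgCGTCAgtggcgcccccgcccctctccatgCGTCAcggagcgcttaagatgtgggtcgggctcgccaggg
Fos: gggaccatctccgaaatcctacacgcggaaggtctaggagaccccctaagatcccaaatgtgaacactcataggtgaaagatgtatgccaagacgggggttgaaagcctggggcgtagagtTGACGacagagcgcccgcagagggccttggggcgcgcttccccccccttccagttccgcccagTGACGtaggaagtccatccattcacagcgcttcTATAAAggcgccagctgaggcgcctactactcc
Jun: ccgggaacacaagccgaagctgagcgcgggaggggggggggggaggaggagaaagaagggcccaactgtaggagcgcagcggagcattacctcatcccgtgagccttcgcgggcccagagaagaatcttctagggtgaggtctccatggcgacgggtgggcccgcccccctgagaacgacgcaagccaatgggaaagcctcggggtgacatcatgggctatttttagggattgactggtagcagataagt
For Dusp1, 30 bases on the minus strand at chr17:26508597-26508626 hold its full element.
Dusp1: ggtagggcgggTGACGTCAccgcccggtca

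The CArG box of Egr2 lies 72 bases before that start, between 2 half-sites, and 4 of the 5 Egr2 windows hold such a box. As 3 of these 4 windows overlap and share this one, they hold 2 distinct boxes. Of all 32851 windows, 1.63% hold one. The full cyclic AMP response element was found in Dusp1, 143 bases before the start, and in 1.79% of all windows. Half-sites were more common, in 20.8% of all windows, with 4 in Nr4a1, 3 in Dusp1, 2 in Fos and 1 each in Fosb and Junb. TATAAA was found in Fos, 33 bases before the start, and in Junb, and in 13.6% of all windows. The AP-1 site (7.81% of windows) and the EGR site (0.612%) were found in none of the member windows, and the Jun window held no match to any of the 6 motifs. These are matches of letters only.

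The libraries held 36463524 to 68523196 gene counts (median 50171983). Trp53, the deleted gene, ranged from 70.2 to 113 CPM with p53 wt and from 7.32 to 30.6 CPM in the 10 libraries with p53 ko. Zbtb17 ranged from 42.9 to 138 CPM (Miz1 wt) and from 38 to 87.5 CPM (deltaPOZ), and whole-gene counts need not show a deletion of the POZ exons. Levels are given as CPM, counts scaled by library size after TMM normalisation. All 9 T cell markers (such as Cd3e and Thy1) were detected in every library, with a summed level of 2280 to 4660 CPM. The libraries with and without ICN stood apart in the RNA of other cells: 7 neutrophil markers summed to 49.6 to 8960 CPM in the 12 ICN libraries and to 0.33 to 1.44 CPM in the 4 others. Erythroid markers (6 of 7 matched) summed to 3090 to 18000 and to 1.88 to 31.1 CPM. In bulk samples, fewer cells of a type and less RNA per cell cannot be told apart.

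Compared per length of their exons, Junb was the most abundant member, with a median over 16 libraries of 23 CPM per kilobase. It was followed by Ier2 (11.6), Dusp1 (5.82), Nr4a1 (4.94), Jun (3.64), Fos (3.41), Egr1 (2.41), Egr2 (1.25), Fosb (0.29) and Egr3 (0.089 CPM per kilobase). From Ier2 to Egr3 the ranges over libraries overlapped from each gene to the next, as did those of Junb (12.2 to 46.6) and Ier2 (2.98 to 27.4). The lowest and highest library differed 32.5-fold for Egr3, 31-fold for Egr1 and 28.7-fold for Egr2, against 3.83-fold for Junb. Within the 12 ICN libraries the SD of log2 CPM was 1.18 for Egr2, 1.03 for Fosb, 1.01 for Egr3 and for Fos, and 0.42 for Junb, beside a median of 0.43 over all genes tested. Egr3 rested on only 3 to 73 counts per library.

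**Figure D1:**
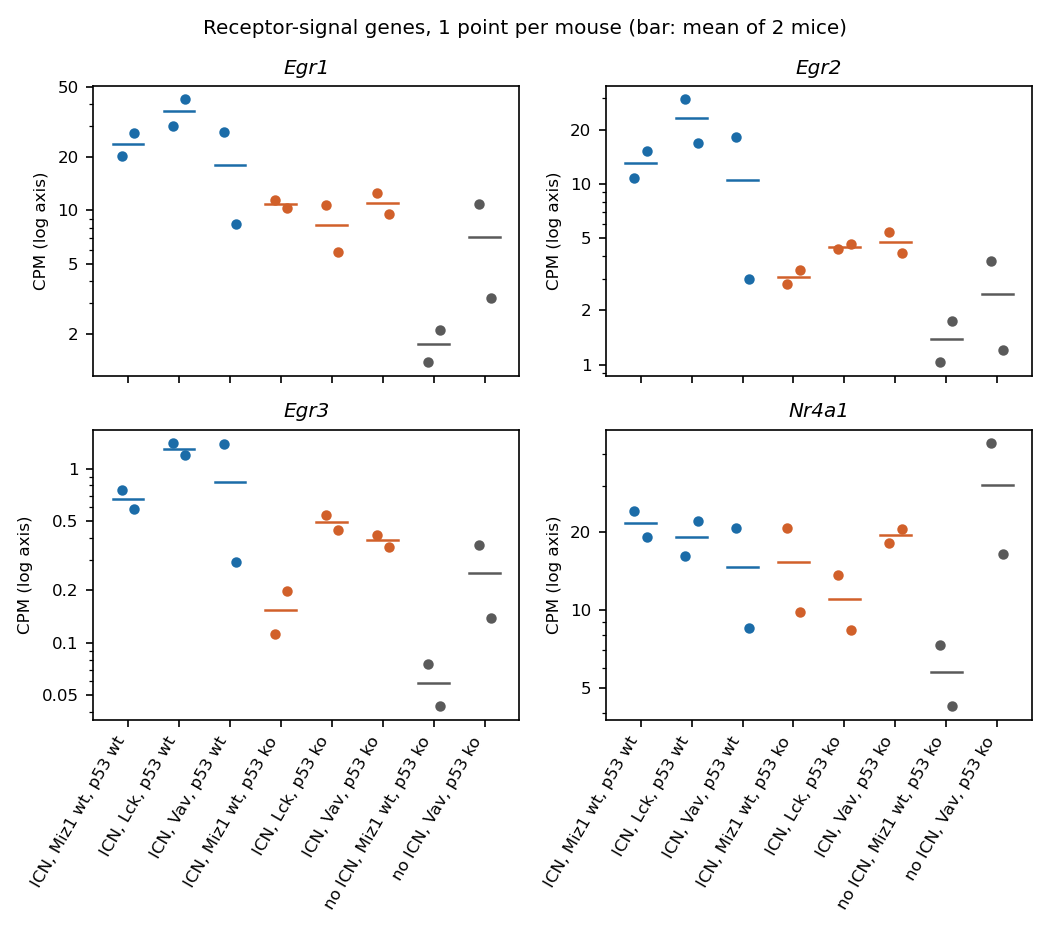
Level of Egr1, Egr2, Egr3 and Nr4a1 in each of the 16 mice (CPM, log axis), in the 8 groups; each point is 1 mouse and each bar the mean of the 2 mice of a group. Blue points are ICN leukaemias with p53 wt, orange ICN with p53 ko and grey p53 ko without ICN. The 3 Egr genes lie lower in orange than in blue except for 1 Vav mouse, while Nr4a1 overlaps between blue and orange. Nr4a1 peaks at 44 CPM in a Vav mouse without ICN and is lowest in the Miz1 wt mice without ICN (7.31 and 4.25 CPM).

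The zinc finger factor Egr1 (ENSMUSG00000038418, chromosome 18, 34859823 to 34864984 on GRCm38) is the prototype of its family. Among ICN leukaemias with p53 wt the level was 20.3 and 27.5 CPM (Miz1 wt), 30.2 and 42.6 CPM (Lck) and 27.7 and 8.37 CPM (Vav). Among those with p53 ko the level was 11.4 and 10.3 CPM (Miz1 wt), 10.7 and 5.84 CPM (Lck) and 12.5 and 9.54 CPM (Vav). The mice without ICN gave 1.38 and 2.12 CPM (Miz1 wt) and 10.9 and 3.21 CPM (Vav). The p53 wt libraries were thus the highest apart from replicate 2 of the Vav group, which fell within the p53 ko range of 5.84 to 12.5 CPM.

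Egr2 (ENSMUSG00000037868, chromosome 10, 67535475 to 67542188) encodes a factor that marks strong receptor signals in thymocytes. With ICN and p53 wt its level was 10.8 and 15.3 CPM (Miz1 wt), 29.5 and 16.9 CPM (Lck) and 18.2 and 2.97 CPM (Vav). In the ICN p53 ko groups it lay at 2.8 and 3.35 CPM (Miz1 wt), 4.37 and 4.64 CPM (Lck) and 5.44 and 4.13 CPM (Vav). In leukaemias without ICN it was 1.03 and 1.75 CPM (Miz1 wt) and 3.73 and 1.2 CPM (Vav). Again replicate 2 of the Vav p53 wt group alone kept the p53 genotypes from separating, since the other p53 wt libraries began at 10.8 CPM and the p53 ko libraries ended at 5.44 CPM.

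Its close relative Egr3 (ENSMUSG00000033730, chromosome 14, 70077203 to 70082614) was the least abundant member. ICN leukaemias with p53 wt held 0.757 and 0.586 CPM (Miz1 wt), 1.4 and 1.2 CPM (Lck) and 1.39 and 0.29 CPM (Vav). Those with p53 ko held 0.112 and 0.198 CPM (Miz1 wt), 0.541 and 0.444 CPM (Lck) and 0.418 and 0.355 CPM (Vav). Both Miz1 wt leukaemias without ICN gave 3 counts each (0.0751 and 0.0431 CPM), and the Vav ones gave 0.366 and 0.139 CPM. In both ICN backgrounds the 2 Lck mice lay above the 2 Miz1 wt mice, an order that Egr2 and 2.14% of all genes shared.

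Nr4a1 (ENSMUSG00000023034, chromosome 15, 101254269 to 101274795), encodes the orphan nuclear receptor Nur77. It lay at 24 and 19.2 CPM (Miz1 wt), 16.1 and 22 CPM (Lck) and 20.8 and 8.51 CPM (Vav) with ICN and p53 wt. With ICN and p53 ko the values were 20.8 and 9.82 CPM (Miz1 wt), 13.7 and 8.4 CPM (Lck) and 18.2 and 20.6 CPM (Vav). Without ICN they were 7.31 and 4.25 CPM (Miz1 wt) and 44 and 16.5 CPM (Vav). The highest and the lowest of all 16 libraries were therefore both leukaemias without ICN.

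**Figure D2:**
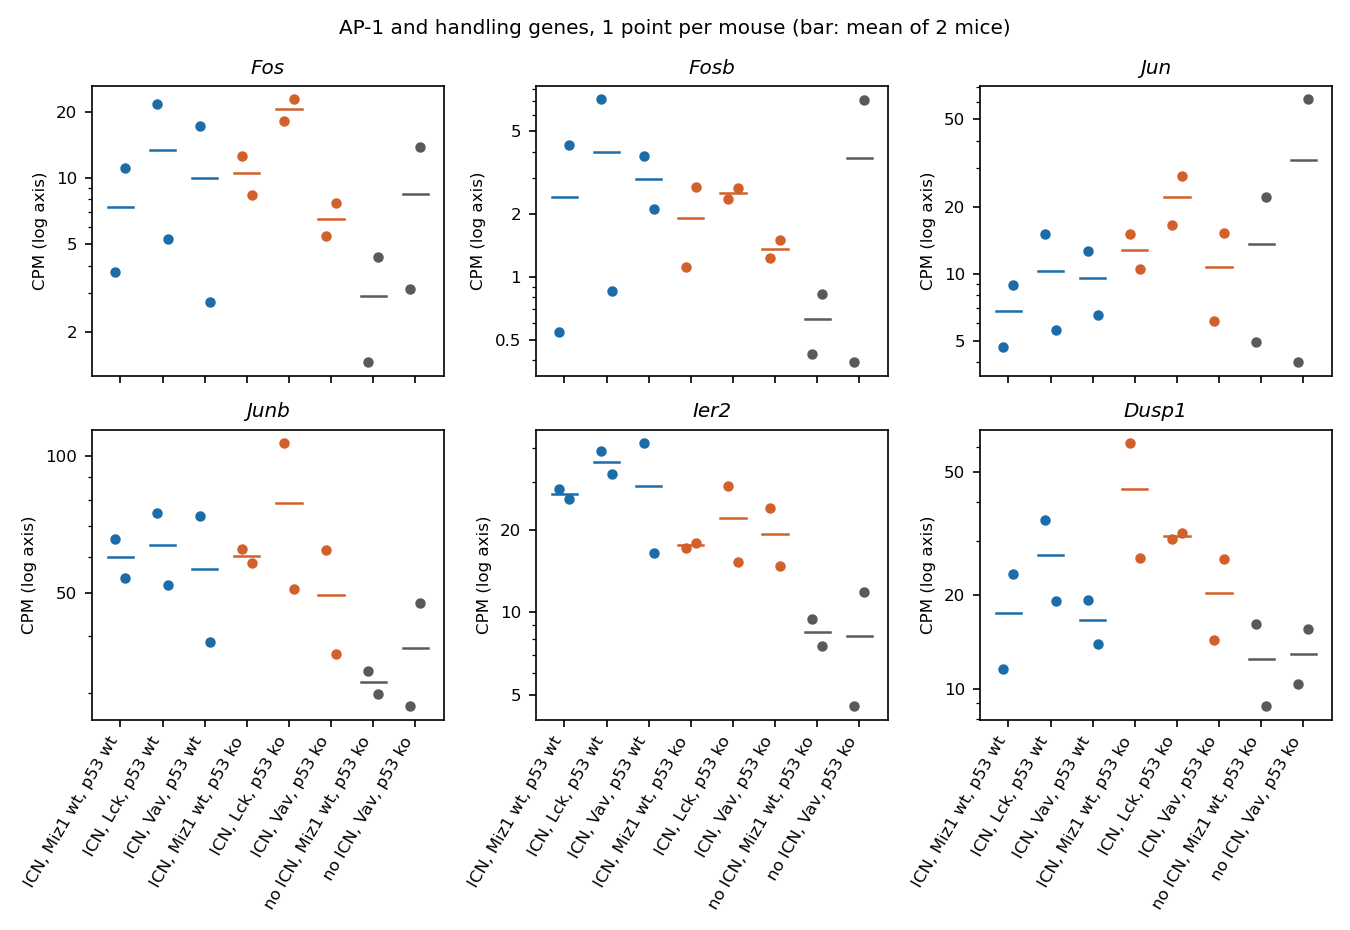
Level of Fos, Fosb, Jun, Junb, Ier2 and Dusp1 in each of the 16 mice (CPM, log axis), drawn as for the receptor-signal genes: 1 point per mouse, a bar at the mean of 2 mice, blue for ICN with p53 wt, orange for ICN with p53 ko and grey for p53 ko without ICN. The 2 mice of a group often lie far apart for Fos, Fosb and Jun, as in the Vav group without ICN (Jun at 3.98 and 61.5 CPM), while Ier2 lies at no more than 11.9 CPM in the 4 grey points and at no less than 14.8 CPM in all others.

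Fos (ENSMUSG00000021250, chromosome 12, 85473890 to 85477273) varied as much within groups as between them. It lay at 3.73 and 11.1 CPM (Miz1 wt), 21.6 and 5.26 CPM (Lck) and 17.2 and 2.73 CPM (Vav) with ICN and p53 wt. ICN leukaemias with p53 ko had 12.6 and 8.36 CPM (Miz1 wt), 18.2 and 22.8 CPM (Lck) and 5.42 and 7.66 CPM (Vav). Without ICN it lay at 1.45 and 4.36 CPM (Miz1 wt) and 3.14 and 13.8 CPM (Vav). Its paralog Fosb (ENSMUSG00000003545, chromosome 7, 19302696 to 19310051) ranged from 0.543 to 7.14 CPM with p53 wt, from 1.12 to 2.7 CPM with ICN and p53 ko, and from 0.389 to 7.1 CPM without ICN.

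Jun (ENSMUSG00000052684, chromosome 4, 95049034 to 95052222), the partner of Fos in AP-1, had its 2 highest values outside the p53 wt mice. With ICN and p53 wt it lay at 4.66 and 8.9 CPM (Miz1 wt), 15.1 and 5.55 CPM (Lck) and 12.7 and 6.53 CPM (Vav). The 6 ICN mice with p53 ko gave 15.2 and 10.5 CPM (Miz1 wt), 16.6 and 27.8 CPM (Lck) and 6.11 and 15.3 CPM (Vav). Without ICN it lay at 4.9 and 22.3 CPM (Miz1 wt) and at 3.98 and 61.5 CPM (Vav), which spans the range of all other libraries. The gene overlaps Junos on the opposite strand. Junb (ENSMUSG00000052837, chromosome 8, 84974484 to 84978718, overlapping Prdx2 on the opposite strand) ranged only from 36.6 to 107 CPM with ICN and from 28 to 47.5 CPM without. The strand setting of the counting is not given in the sources used here, so how reads in such overlaps were counted is not known. Alignments set aside as ambiguous made up 0.138% to 0.331% of each library.

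Ier2 (ENSMUSG00000053560, chromosome 8, 84661331 to 84662852), a nuclear immediate early protein, lay higher in all 12 libraries with ICN than in the 4 without, as did 8.25% of all genes. With ICN and p53 wt it lay at 28.3 and 26.1 CPM (Miz1 wt), 39.1 and 32.2 CPM (Lck) and 41.7 and 16.5 CPM (Vav). In the ICN p53 ko groups it lay at 17.2 and 18 CPM (Miz1 wt), 29 and 15.3 CPM (Lck) and 24.1 and 14.8 CPM (Vav). The 4 leukaemias without ICN gave 9.43 and 7.52 CPM (Miz1 wt) and 4.53 and 11.9 CPM (Vav), all below every ICN library.

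Dusp1 (ENSMUSG00000024190, chromosome 17, 26505590 to 26562128) encodes the phosphatase that switches off JNK, p38 and ERK kinases. It lay at 11.6 and 23.5 CPM (Miz1 wt), 34.9 and 19.2 CPM (Lck) and 19.4 and 14 CPM (Vav) with ICN and p53 wt. ICN leukaemias with p53 ko had 61.9 and 26.4 CPM (Miz1 wt), 30.3 and 31.8 CPM (Lck) and 14.4 and 26.2 CPM (Vav). Without ICN it lay at 16.2 and 8.78 CPM (Miz1 wt) and 10.4 and 15.6 CPM (Vav). Its highest value was that of replicate 1 of ICN Miz1 wt p53 ko, the library with the fewest gene counts. The annotated gene overlaps Ergic1 and Gm8225 on the opposite strand and AC122252.4 and AC122252.1 on its own.

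Single libraries stood out across many members. Replicate 2 of ICN Vav p53 wt was the lowest of the 6 ICN p53 wt libraries for 7 members (Egr1, Egr2, Egr3, Nr4a1, Fos, Junb and Ier2), and replicate 1 of ICN Lck p53 wt was the highest for 7 (Egr2, Egr3, Fos, Fosb, Jun, Junb and Dusp1). Replicate 2 of ICN Vav p53 wt also had the most genes detected of all 16 libraries (25387, median 20675). Its non-unique alignments were 56.2%, against 47.7% to 49.1% in the other ICN p53 wt libraries. The part of these measures in its levels was not tested. The 2 Vav leukaemias without ICN parted the classes. Of the 4 libraries without ICN, replicate 1 was the highest for all 4 receptor-signal genes and the lowest for Fosb, Jun, Junb and Ier2, whereas replicate 2 was the highest for Fos, Fosb, Jun, Junb and Ier2.

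The first comparison asks how p53 loss goes with the members in ICN leukaemias (6 p53 ko against 6 p53 wt mice, averaged over the Miz1 wt, Lck and Vav groups). The 3 Egr genes had the lowest fitted changes of the 10: Egr2 at log2 -1.86 (SE 0.43, 3.64-fold lower, means of 4.12 and 15.6 CPM), Egr3 at -1.53 (SE 0.42) and Egr1 at -1.33 (SE 0.36, means of 10.1 and 26.1 CPM). They did not pass edgeR's quasi-likelihood test over all genes, with adjusted p-values of 0.0931 (Egr2), 0.139 (Egr3) and 0.132 (Egr1). The call rule was an adjusted p under 0.05, and it called 0 of 10 members and 0.195% of all genes, in either direction.

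Egr1, Egr2 and Egr3 were among the 6.83% of all genes that were lower with p53 ko at an unadjusted p under 0.05 in edgeR. DESeq2 called all 3 lower (adjusted p = 0.000702, 0.00853 and 0.0327 for Egr2, Egr1 and Egr3) and 2.49% of the genes it tested. edgeR without the low-count filter called the same 3, beside 2.08% of genes. Without replicate 1 of ICN Vav p53 wt the fitted value of Egr2 was -1.25 and that of Egr3 -1.02, and without replicate 2 they were -2.13 and -1.77, with adjusted p-values of 0.0519 to 0.366.

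The other 7 members gave no call either. Nr4a1 differed by -0.29 on the log2 scale (SE 0.32), less than its own error. Among the AP-1 and handling genes the values were 0.17 for Fos (SE 0.56), -0.70 for Fosb (SE 0.72), 0.72 for Jun (SE 0.60), 0.04 for Junb (SE 0.24), -0.63 for Ier2 (SE 0.30) and 0.61 for Dusp1 (SE 0.30). The median log2 change was -1.43 over the 4 receptor-signal genes and 0.11 over the 6 others, beside 0 over all genes tested. All 4 receptor-signal genes lay below 0, and 4 of the 6 others above it.

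Other genes of the same pathways were read from lists, which were chosen with earlier results of these data known. Of 16 other antigen-receptor signal targets, such as Cd69, Cd5 and Nab2, 0 were called and 14 had a value below 0 (median -0.77). Of 12 other AP-1 family genes tested 0 were called (median 0.27, 2 below 0), and of 25 other immediate early genes 0 (median 0.07). The 12 ERK feedback phosphatases and Sprouty genes (median -0.17), the 22 genes of the Ras-ERK cascade (-0.19), the 10 JNK and p38 kinases (-0.07) and the 11 heat shock and dissociation genes (0.09) also had 0 calls.

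Markers of other cells also lay mostly to one side of 0. All 7 neutrophil markers had a positive log2 change (median 3.24), with sums of 52.3 to 894 CPM in p53 wt and 49.6 to 8960 CPM in p53 ko libraries. All 7 macrophage markers were also above 0 (median 0.96; 113 to 253 and 207 to 1470 CPM), and all 7 B cell markers were below 0 (median -0.98; 387 to 1250 and 182 to 1430 CPM). All 6 erythroid markers tested lay above 0 (median 0.27), and 7 of 8 endothelial and stromal markers lay below it (median -0.4). All 7 neutrophil markers were detected in every ICN library. Of all these lists 0 genes were called, and their part in the values of the members was not tested. The summed T cell markers overlapped, at 2280 to 3930 and 2530 to 3910 CPM. Mouse numbers in the titles fall in separate ranges for ICN p53 wt, ICN p53 ko and non-ICN leukaemias, so whatever these numbers stand for cannot be told apart from p53 genotype or ICN. Within each p53 genotype, the numbers of ICN Lck mice also lie apart from those of Miz1 wt and Vav mice. The same limit therefore holds for the Lck groups.

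**Figure D3:**
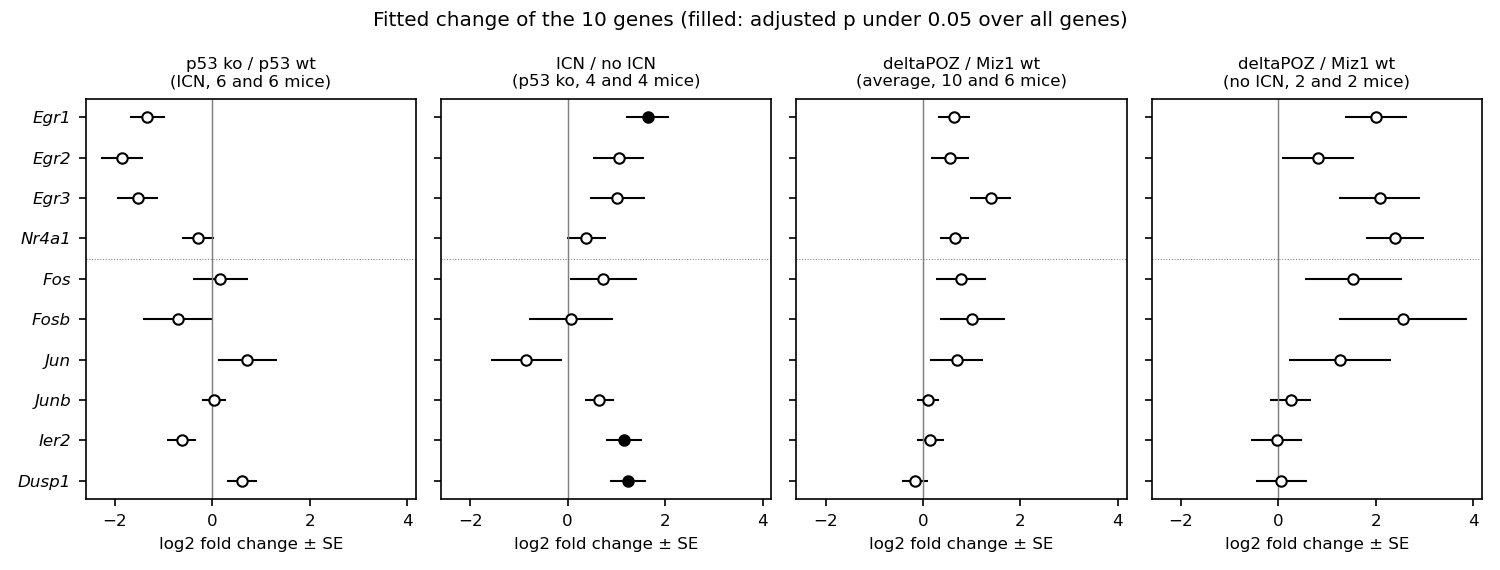
Fitted log2 fold change of the 10 genes (points) with its standard error (bars) in 4 comparisons; filled points passed an adjusted p under 0.05 over all 17470 genes, and the dotted line parts the receptor-signal genes (above) from the AP-1 and handling genes. Filled points are Egr1 (1.64), Ier2 (1.15) and Dusp1 (1.23) in the comparison of ICN with no ICN, and the 3 Egr genes lie left of 0 in that of p53 ko with p53 wt.

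The second comparison sets leukaemias with ICN beside those without it, all p53 ko (Miz1 wt and Vav groups, 4 against 4 mice). Egr1, Ier2 and Dusp1 were higher with ICN. Egr1 rose 3.11-fold (log2 1.64, SE 0.45, edgeR adjusted p = 0.0224; means of 10.9 and 4.4 CPM), Ier2 2.22-fold (1.15, SE 0.37, adjusted p = 0.0427; 18.5 and 8.34 CPM) and Dusp1 2.35-fold (1.23, SE 0.37, adjusted p = 0.0342; 32.2 and 12.8 CPM). These 3 of 10 members stand beside 12.9% of all genes called higher and 11.1% called lower. Ier2 was the 1 member whose groups did not overlap, as did not those of 12.1% of all genes in that direction.

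For the other members the log2 values were 1.05 for Egr2 (SE 0.52, adjusted p = 0.167), 1.02 for Egr3 (SE 0.56, 0.209), 0.65 for Junb (SE 0.30, 0.135, but called at 0.0346 without the low-count filter, beside 9.28% of all genes called higher), 0.73 for Fos (SE 0.69), 0.38 for Nr4a1 (SE 0.40), 0.07 for Fosb (SE 0.87) and -0.85 for Jun (SE 0.73). The plain means of Nr4a1 (17.3 with ICN, 18 CPM without) and Fosb (1.64 and 2.19 CPM) pointed the other way from these fitted values, which average log levels of groups. All 3 calls were lost when the fit held only the 4 groups compared (adjusted p = 0.0573 for Egr1, 0.0867 for Ier2 and 0.0827 for Dusp1). They were also all lost without replicate 1 of ICN Miz1 wt p53 ko. Of all 16 libraries, that one had the fewest gene counts (36463524). It also had the lowest share of alignments in genes (20.6%) and the highest non-unique share (63.7%). The part of these measures was not tested. The call of Egr1 was also lost without replicate 1 of noICN Miz1 wt, replicate 2 of noICN Vav or replicate 1 of ICN Vav p53 ko. That of Dusp1 was lost without replicate 2 of noICN Miz1 wt, either noICN Vav library, replicate 1 of ICN Lck p53 ko or replicate 2 of ICN Vav p53 ko. That of Ier2 remained in 4 of the 16 fits that left out 1 library, those without either ICN Vav p53 wt library, replicate 2 of noICN Vav or replicate 2 of ICN Lck p53 ko.

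Calls in the lists below stand beside 12.9% of all genes called higher with ICN and 11.1% called lower. Of 16 other antigen-receptor signal targets, 5 were called higher and 0 lower, while 10 had a value above 0 and 6 below it (median 0.8). The 5 called were Irf4, a transcription factor of activated lymphocytes (log2 4.39, SE 0.35), Il2ra, a chain of the IL-2 receptor (3.96, SE 1.27), the early activation marker Cd69 (2.71, SE 0.57), and the surface receptors Cd5 (1.61, SE 0.38) and Cd6 (0.97, SE 0.27). Among 25 other immediate early genes 8 rose and 2 fell (median 0.45). The rises include Gem, a small GTPase (4.03, SE 0.69), and Ppp1r15a, which counters the integrated stress response (3.83, SE 0.46), and the falls were Ier5 (-1.15) and Arc (-1.57). Of 12 ERK feedback genes 3 rose and 3 fell. Spry4 (4.65, SE 0.81) was opposed by its relatives Spry2 (-3.48, SE 1.13) and Spry1 (-2.61, SE 0.57). Of 12 other AP-1 family genes 3 rose and 1 fell (Jdp2, a repressor of AP-1, at -3.63). Cd69, Cd5, Cd6, Ier5, Arc, Spry1 and Spry2 were named after their values were seen.

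Some markers of other blood cells were also called higher with ICN. All 7 neutrophil markers (median log2 10.4), all 6 erythroid markers tested (10.73), 5 of 7 B cell markers (3.91) and 2 of 7 macrophage markers (0.27) were called higher with ICN. In this comparison the neutrophil markers summed to 49.6 to 3700 CPM with ICN and 0.33 to 1.44 CPM without, and 4, 2, 0 and 2 of the 7 were at 0 counts in the 4 libraries without ICN. The macrophage sums overlapped, at 207 to 306 and 104 to 319 CPM. Other lists did not rise as a whole. Of 9 T cell markers 1 was called higher and 2 lower (median -0.11). The 8 endothelial and stromal markers also had 1 and 2 such calls (-0.95). Among the 11 heat shock and dissociation genes 0 were called higher and 1 lower (0.06). Neutrophils, macrophages and B cells are known to express several of the members, and the part of these cells in the 3 rises was not tested.

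The question of the series is what loss of the Miz1 POZ domain does. Averaged over the 3 backgrounds (10 deltaPOZ against 6 Miz1 wt mice), edgeR called 0 members and 3 genes (0.0172%). The unadjusted p was under 0.05 for 859 genes. By DESeq2 0 members were called as well. Egr3 had the largest value, log2 1.39 (SE 0.42, adjusted p = 0.695). All 4 receptor-signal genes were above 0 (0.64 for Egr1 with SE 0.33, 0.56 for Egr2 with SE 0.39 and 0.65 for Nr4a1 with SE 0.30; median 0.65). Values of the others were 0.78 for Fos, 1.01 for Fosb, 0.69 for Jun, 0.10 for Junb, 0.15 for Ier2 and -0.16 for Dusp1. Those of Fosb, Jun, Junb and Ier2 fell below 0 in at least 1 fit that left out a library, and that of Dusp1 rose above it. B cell markers were above 0 in all 7 cases (median 1.74, 59.3 to 1180 CPM in Miz1 wt and 225 to 1430 CPM in deltaPOZ libraries). Also above 0 were 6 of 7 neutrophil (median 0.35), 5 of 6 erythroid (0.61) and 6 of 8 endothelial and stromal markers (0.37). Of 7 macrophage markers 5 were below 0 (median -0.07). The part of these lists was not tested.

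In ICN leukaemias with p53 wt (4 against 2 mice) the members ranged from -0.37 for Nr4a1 (SE 0.48) to 0.64 for Egr3 (SE 0.63) and Fos (SE 0.86), and 0 members and 0% of genes were called, with 327 genes at an unadjusted p under 0.05 and 15 genes but no member by DESeq2. All 7 neutrophil (median -1.3) and all 6 erythroid markers (-0.13) were below 0 there. Above it were all 7 macrophage (0.19), all 8 endothelial and stromal (0.56) and 6 of 7 B cell markers (0.98). The part of these lists was not tested. In ICN leukaemias with p53 ko (4 against 2 mice) 0 members and 0.00572% of genes were called. There both Miz1 wt libraries lay below all 4 deltaPOZ libraries for Egr2 (2.8 and 3.35 against 4.13 to 5.44 CPM) and Egr3 (0.112 and 0.198 against 0.355 to 0.541 CPM), an order that 4.4% of all genes shared. The fitted values were 0.59 for Egr2 (SE 0.65) and 1.46 for Egr3 (SE 0.69), with an adjusted p of 1 each. Below 0 were Dusp1 (-0.81, SE 0.44), Egr1 (-0.19), Nr4a1 (-0.06) and Fosb (-0.04). Jun (0.26), Ier2 (0.24), Fos (0.15) and Junb (0.05) were also above 0. The B cell markers parted as Egr2 and Egr3 did, at 182 and 229 CPM (Miz1 wt) against 669 to 1430 CPM in sum, with 7 of 7 above 0 (median 3.59). All 7 neutrophil markers were also above 0 (median 1.12; 49.6 and 3700 against 541 to 8960 CPM), and the part of either list was not tested. A direct test of whether the deltaPOZ change differed between the 2 backgrounds called 0 members and 0% of genes (454 genes at an unadjusted p under 0.05, and 27 genes but no member by DESeq2). The difference was 0.82 for Egr3 (SE 0.90) and farthest from 0 for Dusp1, at -1.09 (SE 0.64).

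Without ICN (2 Vav deltaPOZ against 2 Miz1 wt mice, all p53 ko) the highest fitted values were those of Fosb, Nr4a1, Egr3 and Egr1. Nr4a1 lay at 44 and 16.5 CPM against 7.31 and 4.25 CPM (log2 2.39, SE 0.59, edgeR adjusted p = 0.297). The values of Egr1 (2.00, SE 0.64, adjusted p = 0.481) and Egr3 (2.08, SE 0.83, 0.578) were similar in size, and all 3 genes had deltaPOZ libraries above both Miz1 wt libraries, as had 12.8% of all genes. These 3 also had an unadjusted p under 0.05, as had 4.63% of genes in that direction. edgeR called 0 members and 0% of genes, while DESeq2 called Nr4a1 (adjusted p = 0.0053) beside 1.13% of genes called higher. Without the low-count filter, Egr1, Nr4a1 and Fosb were called beside 1.8% of genes.

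The 2 mice of the Vav group differed widely here, and single libraries set several values. Without replicate 1 of that group the value of Egr2 went from 0.82 to -0.23, that of Nr4a1 to 1.5 and that of Egr1 to 0.86. Without replicate 2, Fosb went from 2.56 to -0.69 and Jun from 1.26 to -1.76. Fos was at 1.54 (SE 0.99), Junb at 0.25 (SE 0.42), Ier2 at -0.04 (SE 0.52) and Dusp1 at 0.06 (SE 0.52). Of 16 other antigen-receptor signal targets 13 lay above 0 (median 1.34) and 0 were called, and all 11 heat shock and dissociation genes lay below 0 (median -0.52). Markers of other cells moved as well, and 0 were called. All 7 macrophage markers were below 0 (median -0.81; sums of 222 to 319 CPM in Miz1 wt and 104 to 167 CPM in Vav libraries). Above 0 were all 7 neutrophil markers (median 1.73; 0.33 to 0.601 and 1.27 to 1.44 CPM), 5 of 6 erythroid markers (2.01; 1.88 to 2.14 and 6.78 to 31.1 CPM) and 6 of 7 B cell markers (0.69; 59.3 to 149 and 225 to 374 CPM). The sums of these 4 lists did not overlap between the groups, and their part was not tested.

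Whether the deltaPOZ change of Vav mice differed between p53 ko leukaemias with and without ICN was tested directly. It called 0 members and 0% of genes (1221 genes at an unadjusted p under 0.05, and 76 genes but no member by DESeq2). The difference was -1.98 for Egr1 (SE 0.88, adjusted p = 0.712) and -2.05 for Nr4a1 (SE 0.80, adjusted p = 0.702), and the value was the smaller one in the ICN leukaemias. Differences of Fosb (-3.04, SE 1.79) and Fos (-2.22, SE 1.38) lay farther from 0, and only that of Ier2 was above 0 (0.18, SE 0.73).

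The Lck and Vav groups of ICN deltaPOZ leukaemias, whose mouse numbers lie apart within each p53 genotype, were also compared (4 against 4 mice). edgeR called 0 members and 0% of genes, and 551 genes had an unadjusted p under 0.05. By DESeq2, 15 genes and no member were called. Values above 0 were found for 9 members, from 0.24 for Ier2 (SE 0.36) and 0.30 for Egr1 (SE 0.43) to 0.65 for Dusp1 (SE 0.37), 0.66 for Fosb (SE 0.88) and 1.04 for Fos (SE 0.69), and Nr4a1 lay at -0.21 (SE 0.40). Between them were Junb (0.43), Egr3 (0.49), Egr2 (0.52) and Jun (0.58). Those of Egr1, Nr4a1, Fosb and Ier2 changed sign when single libraries were left out. Beside them, all 7 neutrophil (median 1.12), all 7 macrophage (0.54) and all 6 erythroid markers (0.46) were above 0 and all 7 B cell markers below it (-0.44). Their summed levels overlapped between Lck and Vav (146 to 8960 and 108 to 1550 CPM for neutrophils, 113 to 1470 and 207 to 282 for macrophages, 5890 to 18000 and 4340 to 11100 for erythroid cells, 659 to 1190 and 496 to 1430 for B cells), and their part was not tested.

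Members were then compared with each other over the 12 ICN libraries, on the log2 CPM scale. Of 45 pairs, 9 had a Pearson correlation with a Benjamini-Hochberg adjusted permutation p under 0.05. The tightest pair was Egr2 with Egr3 (r = 0.91, Spearman's rho 0.96, permutation p = 1e-05 each, the smallest 100000 resamples can give, adjusted p = 0.00045). It held without the 2 libraries farthest from the median of Egr2 (r = 0.85), within the 6 p53 wt libraries (r = 0.91, exact permutation p = 0.0125) and within the 6 p53 ko libraries (r = 0.90, exact permutation p = 0.0153). Leaving out 1 library at a time gave r of 0.69 to 0.98 within p53 wt, with the lowest value without replicate 2 of ICN Vav p53 wt, and 0.76 to 0.97 within p53 ko. Within p53 ko both genes were lowest in the 2 Miz1 wt mice, while among the 4 deltaPOZ mice the orders differed.

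Egr1 followed them only in part. Over the 12 libraries Egr1 correlated with Egr2 (r = 0.89, permutation p = 0.00035, adjusted p = 0.00551; rho 0.80, permutation p = 0.00303, adjusted p = 0.0195; r = 0.87 without the 2 farthest libraries). These 12 join 5 p53 wt libraries at 20.3 CPM of Egr1 or more with 7 libraries at 12.5 CPM or less. Within the p53 wt libraries r was 0.91 (exact permutation p = 0.0347), which fell to 0.48 without replicate 2 of ICN Vav p53 wt. Within the p53 ko libraries it was -0.19 (exact permutation p = 0.707). Egr1 and Egr3 gave similar values (r = 0.74, permutation p = 0.00641, adjusted p = 0.0361; rho 0.75, permutation p = 0.00718, adjusted p = 0.0359; 0.60 without the 2 farthest; 0.85 and -0.30 within p53 wt and p53 ko, exact permutation p = 0.0375 and 0.574; 0.47 within p53 wt without that library). The difference between these within-genotype values was not tested, and the Egr1 range of p53 ko libraries is narrow.

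Of the 9 pairs, Fos and Jun were the second with an exact permutation p under 0.05 in both p53 genotypes (r = 0.86, permutation p = 0.00046, adjusted p = 0.00551; rho 0.80, permutation p = 0.0024, adjusted p = 0.018). Without the 2 farthest libraries r was 0.83. Within p53 wt it was 0.91 (exact permutation p = 0.0222) and within p53 ko 0.88 (exact permutation p = 0.0153). Dusp1 correlated with Jun (r = 0.77, adjusted permutation p = 0.0208; rho 0.82, adjusted permutation p = 0.0168; 0.75 without the 2 farthest) and with Fos (r = 0.71, adjusted permutation p = 0.0444; rho 0.83, adjusted permutation p = 0.0168; 0.52 without the 2 farthest). Within p53 wt these were 0.82 and 0.85, and within p53 ko 0.62 and 0.58 (exact permutation p = 0.161 and 0.231). Another such pair, Junb with Ier2, was not among the 9 (r = 0.66, adjusted permutation p = 0.0753; rho 0.74, adjusted permutation p = 0.036; 0.66 without the 2 farthest), with r of 0.91 within p53 wt (exact permutation p = 0.0208) and 0.88 within p53 ko (exact permutation p = 0.00556).

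Another 3 of the 9 pairs joined the classes, and all 3 held Ier2: with Egr2 (r = 0.86, adjusted permutation p = 0.00873), Egr3 (0.85, 0.00551) and Egr1 (0.84, 0.00982). Spearman's rho was 0.78, 0.82 and 0.86 (adjusted permutation p = 0.0204, 0.0168 and 0.0148), and r without the 2 farthest libraries was 0.75, 0.85 and 0.81. Within p53 wt the values were 0.92, 0.98 and 0.82 (exact permutation p = 0.0181, 0.00278 and 0.0625). Within p53 ko they were 0.36, 0.41 and 0.55 (exact permutation p = 0.489, 0.415 and 0.265), and the difference between the genotypes was not tested. Without replicate 2 of ICN Vav p53 wt the 3 values within p53 wt were 0.70, 0.94 and 0.25. The median r of all 45 pairs was 0.71 within p53 wt and 0.03 within p53 ko. Each median rests on 6 libraries, and their difference was not tested. Leaving out 1 library within p53 wt gave r of -0.89 to 0.91 for Egr2 with Nr4a1, but 0.94 to 0.99 for Egr3 with Ier2.

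**Figure D4:**
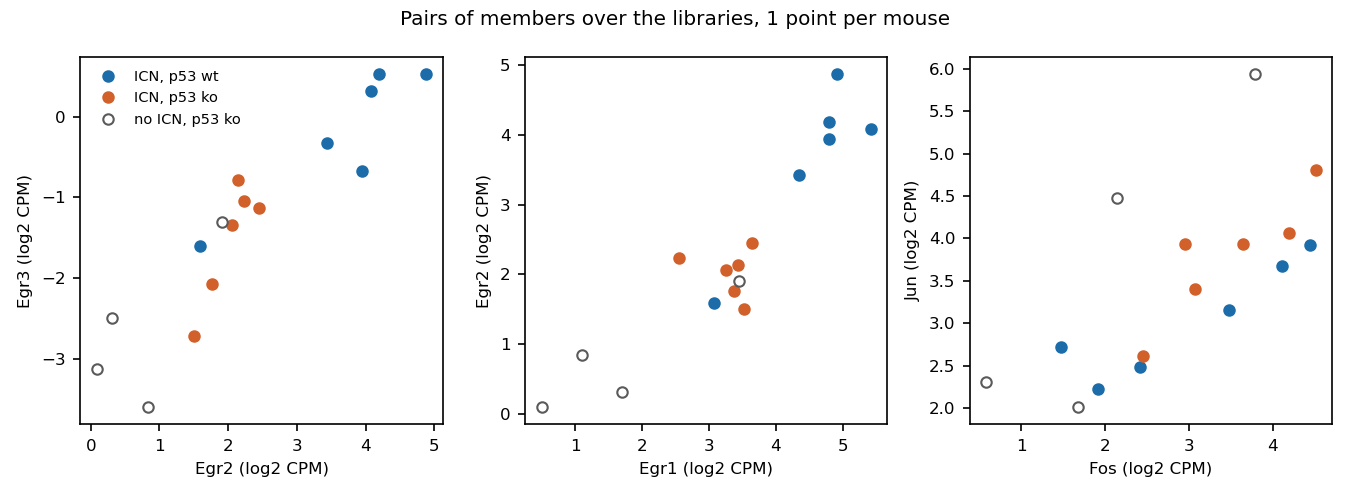
Log2 CPM of Egr2 and Egr3, of Egr1 and Egr2 and of Fos and Jun, 1 point per mouse; filled blue points are ICN leukaemias with p53 wt (6), filled orange points ICN with p53 ko (6) and open points p53 ko without ICN (4), which enter no correlation. Over the 12 filled points r was 0.91, 0.89 and 0.86, and in the middle panel r was -0.19 over the orange points.

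Genes most like each class were sought among 14283 protein-coding genes by the correlation of log2 CPM over the 12 ICN libraries with the mean of the class, as a description of shared libraries with no test. For the receptor-signal genes these were Zfp831 (r = 0.96), Cd5 (0.94), Abi2 (0.94), Gm3636 (0.93) and Nab1 (0.93). Cd5 encodes a surface receptor whose level is known to track antigen-receptor signal strength, and Nab1 a co-repressor that binds EGR proteins. Within p53 ko libraries r stayed at 0.91 for Cd5, 0.84 for Zfp831 and 0.84 for Gm3636, and was 0.53 for Abi2 and 0.30 for Nab1. For the AP-1 and handling genes the closest included Zfp683 (0.81), Adcy9 (0.81), Pacs2 (0.79) and Hist3h2a (0.78), all further from their class than the 5 above. Zfp683 (mean 0.094 CPM) and Gm3636 (0.14 CPM) were barely expressed.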

How the data were processed

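One RNA-seq library per mouse was analysed from 16 mice. The deposited values are whole-number counts per Ensembl gene, made by the authors from libraries prepared with a stranded mRNA kit, per the labels' protocols. The submitters' processing notes list HTSeq, DESeq, SAMtools and TopHat2 2.0.10, with mm10 (GRCm38) as the build. Neither the annotation release nor the strand setting is given in the sources used here. Totals that name no gene were left out. They took most of each library, since genes held 20.6% to 39.6% of its alignments and non-unique alignments 45.8% to 63.7%.

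Names, positions and exon lengths came from GENCODE M21, which gave a symbol for 40254 of 41214 identifiers. Counts were fitted over all 8 groups with edgeR 4.0.16 in R 4.3.3 (TMM scaling, filterByExpr, quasi-likelihood F test, Benjamini-Hochberg adjustment over 17470 genes, threshold 0.05, 8 residual degrees of freedom). The SE of a log2 change is its size over the square root of F. Log2 CPM used a prior count of 2. Correlations used permutation tests with 100000 resamples, or exact ones within 6 libraries. The fit was tested on simulated data. Alternatives were other scalings, no low-count filter, DESeq2 1.42.0, only the groups compared, and each library left out.

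The 10 members and all gene lists were chosen with earlier results of these data known. Values of all members were given in each comparison, except deltaPOZ with ICN and p53 wt and the tests of a difference. There only some members were named. Of the other lists, up to 6 called genes per comparison were named by size of fold, and the 5 genes most like each class by correlation, of which 1 is not reported here. Each library is a separate mouse by its label, so the tests rest on variation among mice. Replicates are numbered by accession, as names only. The p53, ICN, Miz1 and suffix comparisons reuse libraries, so their calls were not compared.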

Additional observations from a re-analysis of the deposited data

Results flagged for a closer look

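A single value stood apart from its set of 4 libraries, which pooled an Lck and a Vav group. In the 4 ICN deltaPOZ leukaemias with p53 wt, Egr3 lay at 0.29 CPM in replicate 2 of the Vav group and at 1.2 to 1.4 CPM in the other 3, a gap of 0.897 of the whole range against a critical value of 0.829 for 4 samples. It was the 1 such value in 30 sets of 4 libraries examined, which reuse the same libraries for each gene. Chance gives about 1 in 20, so 1 in 30 is no more than chance alone gives. The same library was the lowest of the 6 ICN p53 wt libraries for 7 of the 10 members. It also had the most genes detected of all 16 libraries (25387).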

How the results depend on the processing

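Changed scaling (RLE, upper-quartile) left every call on members as it was, and of the log2 values that of Ier2 in the deltaPOZ comparison without ICN turned to 0.03 under upper-quartile factors, which also called 8 genes there. Counts of genes called over all genes rose without the low-count filter, to 502 (deltaPOZ, average), 211 (deltaPOZ, ICN p53 wt), 464 (deltaPOZ, ICN p53 ko), 746 (deltaPOZ without ICN), 1588 (p53), 277 (Lck against Vav) and 378 and 613 (differences of the deltaPOZ change between p53 backgrounds and between ICN and no ICN). With DESeq2 they were 129, 15, 114, 233, 1088, 15, 27 and 76, in the same order. With only the groups compared in the fit they were 149 (p53), 2360 (ICN) and 2 (deltaPOZ, ICN p53 ko). Members called became 3 without the filter for deltaPOZ without ICN and 3 for p53, 1 and 3 with DESeq2, and for ICN 4 without the filter (Egr1, Junb, Ier2 and Dusp1) and 0 with only the groups compared. Values that are 0 to 2 decimals changed sign for Junb without the filter (0.00, deltaPOZ with ICN and p53 wt) and for Ier2 with RLE factors and with DESeq2 (0.00, difference between p53 backgrounds). The cause of these differences was not tested.

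Leaving out each of the 16 libraries in turn gave 0 to 20 genes for the deltaPOZ average, 0 to 1 with ICN and p53 wt, 0 to 3 with ICN and p53 ko, 0 to 108 without ICN, 2 to 132 for p53, 2524 to 4643 for ICN with 0 to 3 members, 0 to 1 for Lck against Vav, and 0 to 12 for the difference between ICN and no ICN. Over these fits the log2 values of members that changed sign in any ranged as follows. In the deltaPOZ average they were -0.07 to 1.72 (Fosb), -0.31 to 1.18 (Jun), -0.03 to 0.21 (Junb), -0.13 to 0.32 (Ier2) and -0.32 to 0.09 (Dusp1). With ICN and p53 wt the deltaPOZ values were -0.46 to 0.41 (Egr1), -0.66 to 0.66 (Egr2), -0.13 to 1 (Egr3), -0.3 to 1.63 (Fos), -0.6 to 2.65 (Fosb), -0.27 to 0.2 (Junb), -0.17 to 0.51 (Ier2) and -0.16 to 0.87 (Dusp1). With ICN and p53 ko they were -0.42 to 0.01 (Egr1), -0.47 to 0.58 (Nr4a1), -0.08 to 0.47 (Fos), -0.54 to 0.76 (Fosb), -0.11 to 0.55 (Jun), -0.25 to 0.28 (Junb) and -0.01 to 0.44 (Ier2). Without ICN they were -0.23 to 1.43 (Egr2), -0.69 to 3.47 (Fosb), -1.76 to 2.71 (Jun), -0.16 to 0.57 (Junb), -0.89 to 0.47 (Ier2) and -0.34 to 0.58 (Dusp1). For p53 the values were -0.1 to 0.79 (Fos), -1 to 0.03 (Fosb) and -0.18 to 0.22 (Junb). For ICN they were -0.42 to 1.71 (Fosb) and -1.34 to 0.67 (Jun). For Lck against Vav they were -0.01 to 0.86 (Egr1), -0.47 to 0.18 (Nr4a1), -0.45 to 1.07 (Fosb) and -0.04 to 0.65 (Ier2). For the difference of the deltaPOZ change between p53 backgrounds they were -0.59 to 0.28 (Egr1), -0.06 to 1.26 (Egr2), -0.09 to 0.94 (Nr4a1), -1.46 to 0.46 (Fos), -2.68 to 0.56 (Fosb), -0.81 to 0.16 (Jun), -0.23 to 0.33 (Junb) and -0.27 to 0.41 (Ier2). For that between ICN and no ICN they were -0.78 to 0.9 (Egr2), -1.35 to 0.08 (Egr3), -3.93 to 0.21 (Fosb), -2.96 to 1.51 (Jun) and -0.3 to 1.04 (Ier2). Of all alternative log2 values of the 10 members in the 9 comparisons, 1735 kept direction and side of the threshold, 25 lost a call, 11 gained one and 108 changed sign. A group left with 1 mouse was assumed to vary like the others. With 2 mice a group, precision is set by the spread between mice, and for Egr3 also by its low counts.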
